A study of Homo sapiens with 19 samples.

Results

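The genes described here encode the machinery of homologous recombination and of the Fanconi anemia pathway, 36 genes taken by symbol from a list of these pathways and joined to the count tables by Ensembl ID. All 36 were found in each of the 3 gene tables, which together hold 84354 gene IDs. RNA was measured in 2 human colorectal carcinoma cell lines, HCT116 and WiDr, each after 96 h in culture with the solvent DMSO or with a drug against protein arginine methyltransferases (PRMTs), enzymes that add methyl groups to arginine residues. GSK025 (GSK3235025) inhibits PRMT5 and was given at 10 µM to HCT116. GSK715 (GSK3368715) inhibits PRMT1 and other type I enzymes and was given at 5 µM to both lines. Short-read libraries were made in triplicate: HCT116 with DMSO, GSK025 or GSK715 (n = 3 each) and WiDr with DMSO or GSK715 (n = 3 each). WiDr with DMSO or GSK715 was also read as full-length cDNA on an Oxford Nanopore (ONT) sequencer (n = 2 each). The cells carried no engineered change that the labels name, and nothing states that the replicates were separate cultures, so the p-values speak only of variation from library to library.

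Homologous recombination repairs a double-strand break by copying the intact sister chromatid. The MRE11-RAD50-NBN complex and RBBP8 (CtIP) start trimming the broken ends, EXO1 extends the trimming, and BRCA1 with its partner BARD1, PALB2 and BRCA2 prepare the exposed strand for pairing with the intact copy, helped by the complexes of RAD51B, RAD51C, RAD51D, XRCC2 and XRCC3. In the Fanconi anemia pathway a core complex of FANC proteins and the ubiquitin-conjugating enzyme UBE2T attach ubiquitin to the clamp of FANCD2 and FANCI at crosslinks between the strands of DNA, and SLX4 then gathers nucleases there. Inherited loss of BRCA1 or BRCA2 predisposes to breast and ovarian cancer, and cells without them depend on other repair routes.

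Library totals were 64.6 to 66.9 M (mega) counts in HCT116, 59.6 to 82.4 M in WiDr short reads and 1.45 to 1.67 M estimated counts in ONT. The 36 genes together took 670.4 to 696.9 CPM (counts-per-million, here of the unscaled library total) in HCT116 with DMSO, 444.5 to 469.8 with GSK025 and 464.9 to 505.9 with GSK715. In WiDr they took 1060.2 to 1092.6 with DMSO and 833.8 to 860.3 with GSK715, and the groups did not overlap in either line. The mitochondrially encoded share of counts moved with treatment in opposite directions: it was 8.64% to 9.09% with DMSO and 5.09% to 5.48% with either inhibitor in HCT116, but 6.07% to 6.49% with DMSO and 8.3% to 8.83% with GSK715 in WiDr. Colon epithelium markers summed to 4448.1 to 4549.8 CPM with DMSO, 7547.6 to 7937.4 with GSK025 and 5718.6 to 6125.3 with GSK715 in HCT116. In WiDr short reads they summed to 16210.1 to 16482.0 CPM with DMSO and 22803.3 to 23315.8 with GSK715. Most of each sum was KRT8, KRT18 and KRT19, and the 11 markers did not move together. In WiDr the means of KRT20 (604.9 to 260.7 CPM), LGALS4 (673.0 to 381.5) and EPCAM (543.1 to 480.8) were lower with GSK715, and the others were higher. In HCT116, KRT19 was lower with GSK715 (1342.0 to 1101.3 CPM) while KRT8 and KRT18 were higher, and 4 or 5 markers a group were under 1 CPM. In every library endothelial markers summed to 3.4 CPM or less and fibroblast markers to 4.71 to 27.6 CPM. Of 6 leukocyte markers, 4 were under 1 CPM in every WiDr group, while LYZ stood at 1191.6 to 1222.4 CPM with DMSO and 2987.0 to 3126.5 CPM with GSK715 in WiDr short reads. The mean of CD14 was 7.95 CPM with DMSO and 20.9 CPM with GSK715 in WiDr short reads, and 14.5 and 13.2 CPM in ONT. The part of any of these shifts in the results below was not tested. In bulk RNA, fewer cells that express a gene and less of its RNA per cell cannot be told apart.

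Promoter windows from RefSeq (GRCh38.p14, 250 bases before to 50 bases after the gene's start) matched 32 of the 36 genes. E2F proteins drive many S-phase genes, and an E2F-type motif (TTTCCCGC, TTTGGCGC, TTTCGCGC or TTTGCCGC on either strand) was present in 5 of the 32 windows, 15.6%, against 3.33% of all 27305 windows. The other motifs searched on both strands were the CHR-type TTTGAA (9.38% of the members' windows, 15.4% of all), CCAAT (43.8% and 35.7%) and the NRF1-type CGCATGCG (3.12% and 2.19%). Matches describe the letters only, and the window lies at the RefSeq gene start, which need not be the start used in these cells. The stretches of the 3 genes whose E2F-type motif lies closest to the gene start are shown from 200 bases before the start to 30 bases from it, 5′ to 3′ on the gene's own strand, because their responses differ: XRCC2 fell in each short-read comparison with DMSO, FANCD2 in 2 of 3, and EXO1 only in WiDr. Capitals mark the motif as it reads on that strand, which begins 21 bases after the start in XRCC2 (chr7:152676112-152676341, minus strand), 2 bases before it in FANCD2 (chr3:10026237-10026466, plus strand) and 4 bases after it in EXO1 (chr1:241848004-241848233, plus strand).
XRCC2: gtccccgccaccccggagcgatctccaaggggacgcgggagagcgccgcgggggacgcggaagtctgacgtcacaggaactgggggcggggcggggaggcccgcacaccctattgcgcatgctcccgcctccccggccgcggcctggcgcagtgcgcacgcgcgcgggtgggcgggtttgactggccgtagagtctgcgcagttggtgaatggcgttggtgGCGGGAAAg
FANCD2: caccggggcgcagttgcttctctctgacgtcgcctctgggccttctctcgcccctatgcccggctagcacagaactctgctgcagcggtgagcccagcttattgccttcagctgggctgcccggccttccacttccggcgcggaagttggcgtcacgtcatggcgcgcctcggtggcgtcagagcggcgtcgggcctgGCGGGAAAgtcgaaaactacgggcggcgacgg
EXO1: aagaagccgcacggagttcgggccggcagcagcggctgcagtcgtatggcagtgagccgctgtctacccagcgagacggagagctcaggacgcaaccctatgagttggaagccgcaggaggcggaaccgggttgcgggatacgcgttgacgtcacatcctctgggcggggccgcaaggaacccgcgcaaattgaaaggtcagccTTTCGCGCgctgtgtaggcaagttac
FANCC and FANCA hold their E2F-type motifs farther upstream, FANCC at 172 and at 46 bases before the start and FANCA at 172.

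Levels below are CPM after TMM scaling, and a change is a log2 fold change (log2FC), given with its standard error (SE), which is approximate. A gene is said to rise or fall where edgeR's quasi-likelihood test gave an adjusted p under 0.05. Per kilobase of exonic length, the DMSO level in HCT116 ran from 29.5 CPM per kb for UBE2T down to 0.447 for BRCA2. In WiDr with DMSO it ran from 21.3 CPM per kb for FANCI and 18.5 for FANCL down to 0.298 for RAD51B. BRCA2, at the bottom of the order in HCT116, stood at 3.25 CPM per kb in WiDr, and BRCA1 at 1.35 and 6.72 in the same order. The tables of the lines were normalized separately, so these levels were not tested against each other.

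With GSK025 in HCT116, 21 of the 36 genes fell, 4 rose and 11 did not pass. Over all genes tested, 44.1% passed, 22.1% as lower and 22.0% as higher. The median log2FC of the 36 genes was -0.63, against -0.018 over all genes, and 15 of the 21 fell at least 2-fold. How many of all genes fell as far was not counted. The GSK025 libraries lay wholly below DMSO for 22 genes and wholly above for 4, where 27.8% and 27.0% of all genes did so. The decline reached the BRCA complexes, the MRE11 complex and most helicases, whereas the genes that rose were RAD51C, RAD52, RAD54L and the core complex member FANCE.

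**Figure D1:**
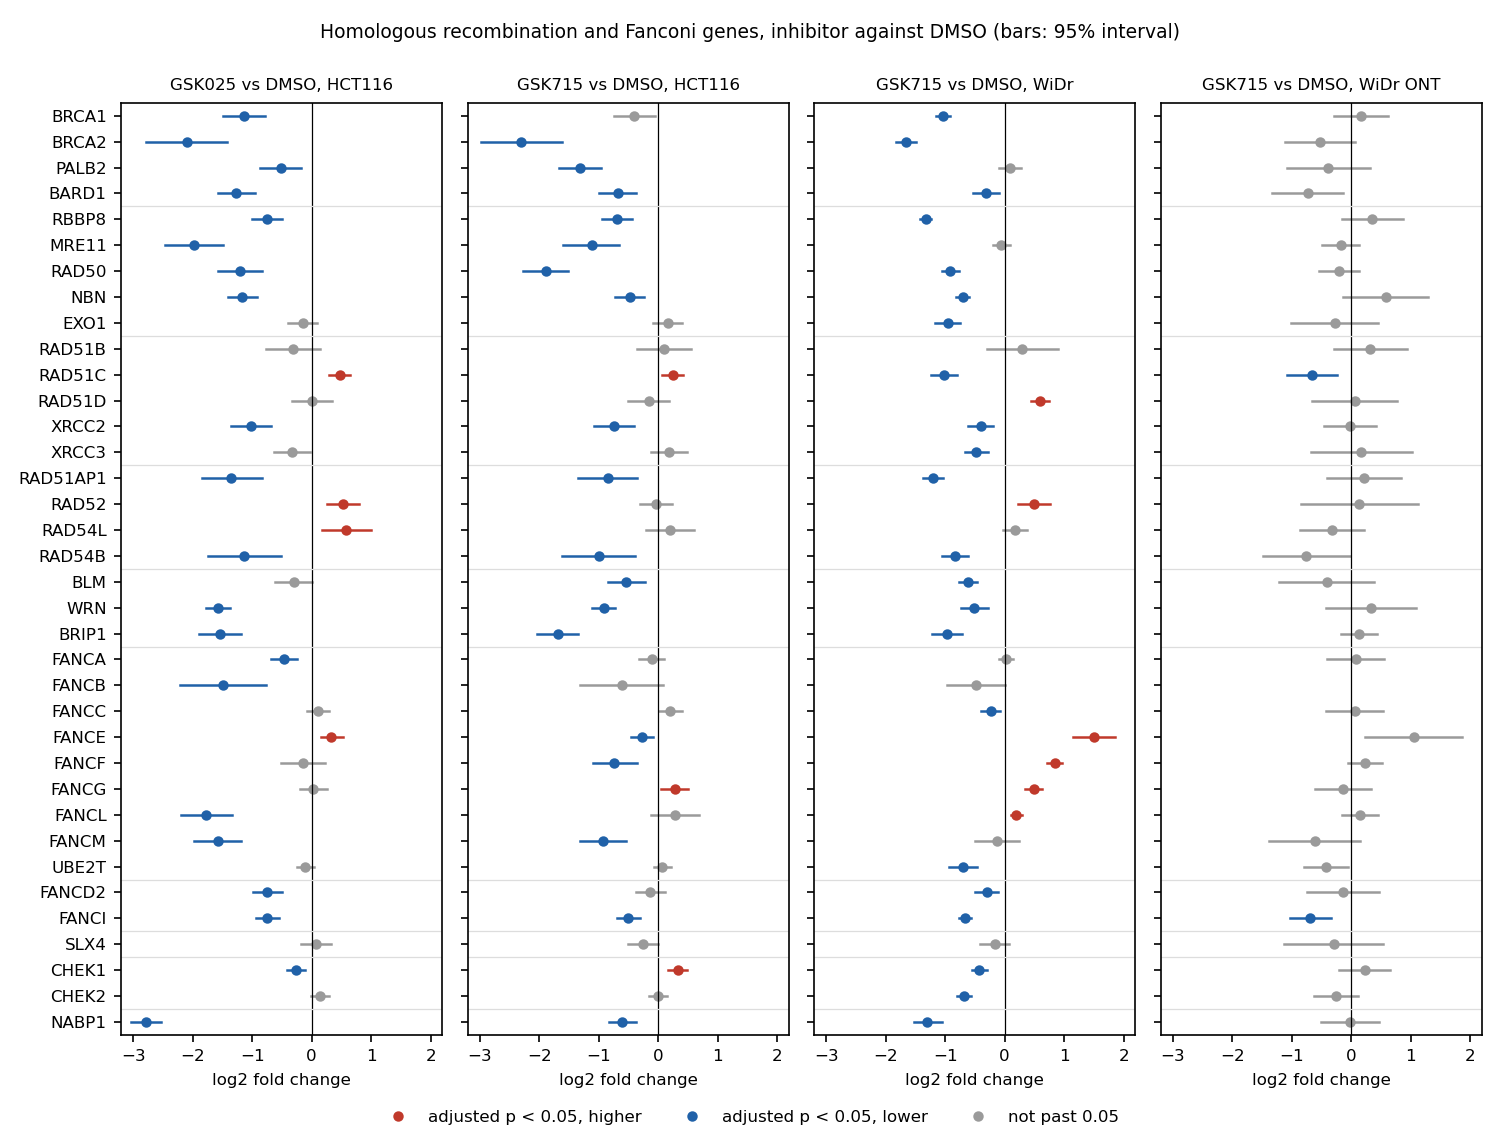
Log2 fold change (x axis) of each of the 36 genes (y axis, grouped by role) with its 95% interval, for each inhibitor against DMSO; blue genes fell, red genes rose and grey genes did not pass, and FANCB was not tested in ONT. The short-read panels hold 21, 18 and 22 blue genes, and the ONT panel holds 2.

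All 4 genes of the BRCA complexes fell with GSK025. BRCA1, a ubiquitin ligase that acts with BARD1, lies at chr17:43044295-43170245 (GRCh38, minus strand) and stood at 11.7, 10.9 and 14.7 CPM with DMSO and at 4.78, 5.59 and 6.55 CPM with GSK025 (log2FC -1.14, SE 0.161, adjusted p = 6.5e-05). BRCA2, which acts on the resected strand, lies at chr13:32315474-32400266 (plus strand) and stood at 6.11, 3.5 and 6.85 CPM with DMSO and at 1.57, 1.18 and 1.09 CPM with GSK025 (log2FC -2.10, SE 0.314, adjusted p = 1.1e-04). Every GSK025 library was below every DMSO library for both genes, a 2.2-fold drop for BRCA1 and a 4.28-fold drop for BRCA2. BARD1 (log2FC -1.27) and PALB2 (log2FC -0.52) fell as well. The PALB2 call was lost without DMSO replicate 3, GSK025 replicate 1 or GSK025 replicate 2.

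The genes that start end resection fell. MRE11, the nuclease of its complex, lies at chr11:94415578-94493908 (minus strand) and went from 10.4, 12.6 and 10.4 CPM with DMSO to 2.17, 3.33 and 2.99 CPM with GSK025 (log2FC -1.98, SE 0.226, adjusted p = 1.0e-05), with no overlap. RAD50, the ATPase that tethers the ends, fell (log2FC -1.20). Its level is uncertain, because 79.7% of its exonic bases are shared with other annotated genes, on its own strand and on the opposite strand. NBN, which links the complex and the checkpoint kinase ATM, fell (log2FC -1.17), and so did RBBP8, the cofactor that activates MRE11 (log2FC -0.75). EXO1, the exonuclease of long-range resection, had a log2FC of -0.15 (95% interval -0.39 to 0.09) and did not pass.

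The group of RAD51B, RAD51C, RAD51D, XRCC2 and XRCC3 and the strand-exchange helpers went both ways. RAD51C, a subunit shared by complexes of this group, rose (log2FC 0.47, adjusted p = 3.7e-04), XRCC2 fell (log2FC -1.02), and RAD51B, RAD51D and XRCC3 did not pass. Of the helpers, RAD51AP1, which stimulates strand pairing, fell (log2FC -1.35), as did the motor protein RAD54B (log2FC -1.13). RAD52, the annealing protein, rose (log2FC 0.53), and so did RAD54L (log2FC 0.58). The RAD54L call was lost with a correction for gene length, with no count filter, and without DMSO replicate 2, GSK025 replicate 1 or GSK025 replicate 2. RAD54L (25.1%), RAD54B (59.1%) and XRCC3 (76.7%) share exonic bases with neighbours and are uncertain.

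Among the helicases, WRN, a RecQ helicase lost in Werner syndrome, went from 33.6, 30.1 and 29.9 CPM with DMSO to 9.95, 9.86 and 11.5 CPM with GSK025 (log2FC -1.58, SE 0.091, adjusted p = 3.8e-08), with no overlap. BRIP1, a helicase that binds BRCA1 and is also known as FANCJ, fell (log2FC -1.54). BLM, the helicase lost in Bloom syndrome, had a log2FC of -0.30 (95% interval -0.62 to 0.01) and did not pass.

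In the Fanconi core, FANCL, the ubiquitin ligase subunit, lies at chr2:58159243-58241372 (minus strand) and went from 9.24, 6.92 and 7.77 CPM with DMSO to 2.16, 2.78 and 2.1 CPM with GSK025 (log2FC -1.77, SE 0.195, adjusted p = 7.8e-06). FANCM, the DNA translocase that recruits the core complex, lies at chr14:45135940-45200890 (plus strand) and went from 6.56, 6.58 and 6.23 CPM to 1.96, 2.44 and 2.08 CPM (log2FC -1.58, SE 0.182, adjusted p = 1.1e-05). The groups did not overlap for either gene, though 19.7% of the exonic bases of FANCL are shared with other genes. FANCB (log2FC -1.49) and FANCA (log2FC -0.46) fell, FANCE rose (log2FC 0.33), and FANCC, FANCF, FANCG and UBE2T did not pass. The calls of FANCA and FANCE were lost with the length correction, and 23.6% of the exonic bases of FANCA are shared with another gene.

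FANCD2, a subunit of the clamp, lies at chr3:10026414-10101930 (plus strand) and stood at 15.3, 20.3 and 16.6 CPM with DMSO and at 9.95, 10.2 and 11 CPM with GSK025 (log2FC -0.75, SE 0.113, adjusted p = 1.2e-04). Its partner FANCI fell to the same extent (log2FC -0.74). NABP1, a single-strand DNA-binding protein of the SOSS complex, lies at chr2:191678068-191696659 (plus strand) and had the largest change of the 36 genes, from 26.4, 23.7 and 25.6 CPM to 3.91, 3.18 and 3.94 CPM (log2FC -2.78, SE 0.114, adjusted p = 3.7e-09), a 6.87-fold drop. Every GSK025 library was below every DMSO library for FANCD2, FANCI and NABP1. The checkpoint kinase CHEK1 fell by a small amount (log2FC -0.26), a call lost with the length correction, and CHEK2 and SLX4 did not pass.

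**Figure D2:**
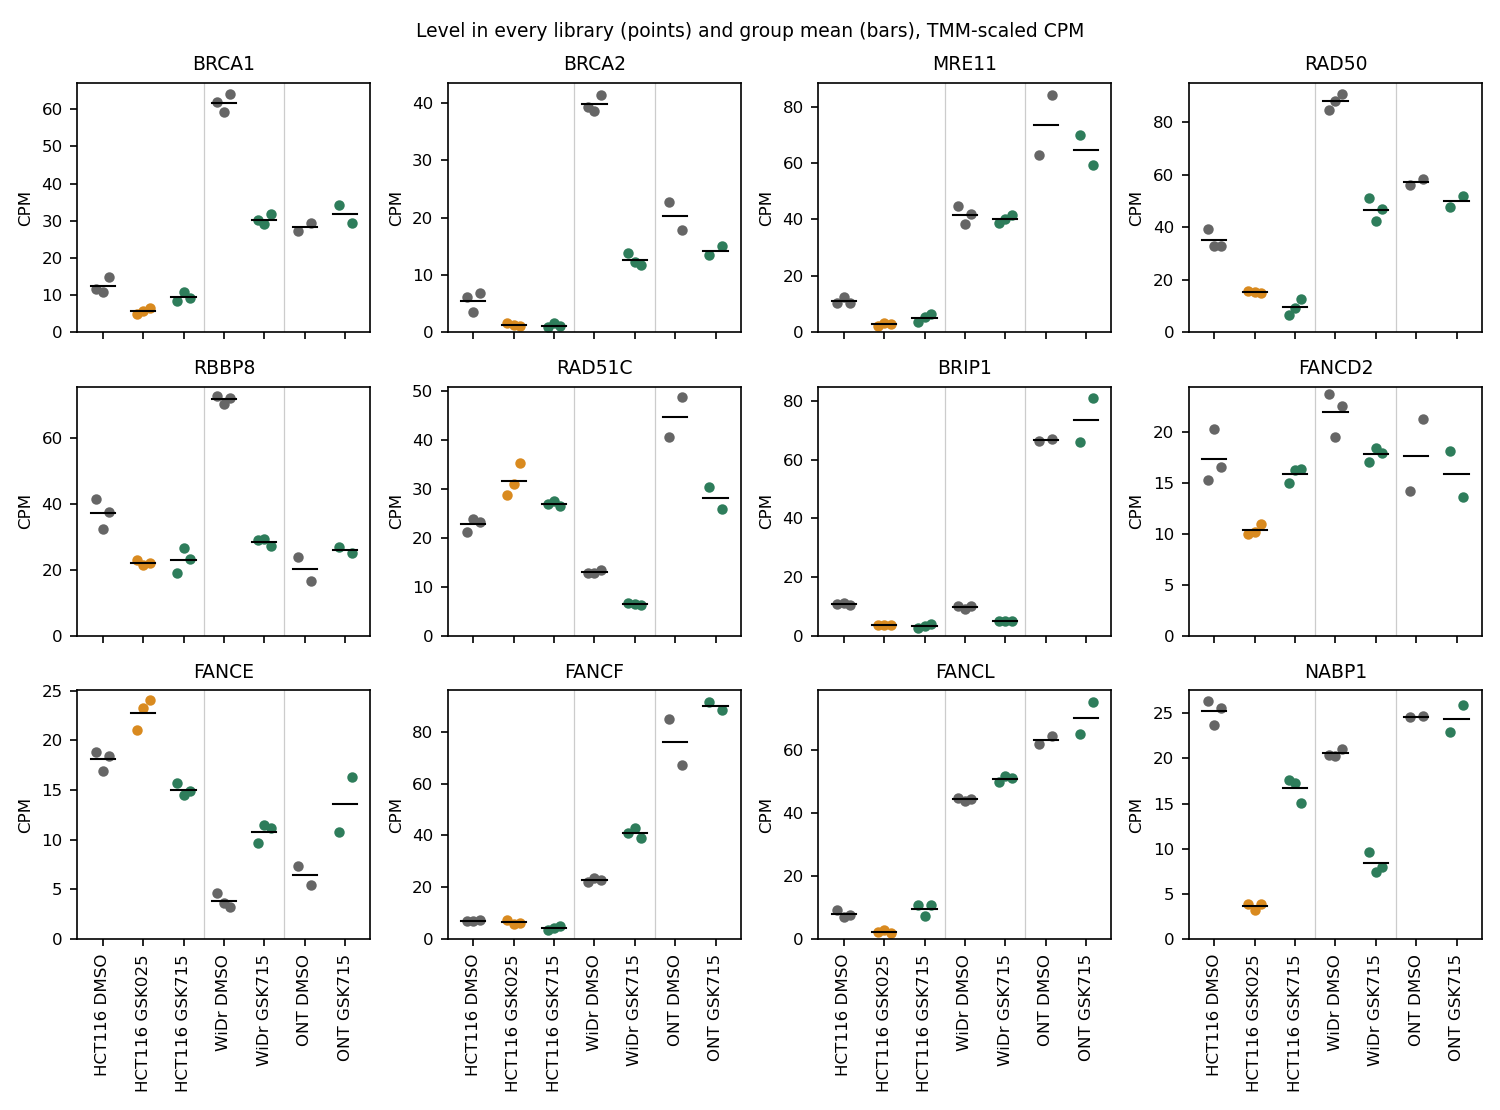
Level in CPM (y axis, from 0) of 12 of the genes in every library (points) and as group means (bars), by line, treatment and read type (x axis). NABP1 is at 3.18 to 3.94 CPM with GSK025 against 23.7 to 26.4 CPM with DMSO, and FANCE is higher with GSK715 in WiDr but lower in HCT116.

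With GSK715 in HCT116, 18 of the 36 genes fell, 3 rose and 15 did not pass, where 46.4% of all genes passed, 24.2% as lower and 22.1% as higher. The median log2FC of the 36 genes was -0.44, against -0.052 over all genes, and 6 of them dropped 2-fold or more. Again the share of all genes that dropped as much was not counted. The GSK715 libraries lay wholly below DMSO for 21 genes and wholly above for 4, as did 30.3% and 26.7% of all genes. Scaled by library totals instead of TMM, the split was 21 lower and 0 higher, and the median over all genes moved to -0.212. This comparison uses the same DMSO libraries as that of GSK025, so the responses to the inhibitors are not independent of each other.

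BRCA2 was at 0.837, 1.52 and 0.997 CPM with GSK715, below each of its DMSO libraries (log2FC -2.30, SE 0.317, adjusted p = 5.0e-05), a 4.91-fold drop. PALB2, the bridge between BRCA1 and BRCA2, lies at chr16:23603160-23641310 (minus strand) and went from 10.5, 11.4 and 11.8 CPM with DMSO to 3.69, 4.2 and 5.66 CPM with GSK715 (log2FC -1.32, SE 0.162, adjusted p = 1.8e-05), also without overlap. BRCA1 was at 8.29, 10.7 and 9.24 CPM with GSK715, below its DMSO libraries by a narrow margin, and did not pass (log2FC -0.40, SE 0.158, adjusted p = 0.0552). It passed with library totals (adjusted p = 0.0111), without DMSO replicate 2 (0.0468) and without GSK715 replicate 2 (0.0398). BARD1 fell (log2FC -0.68).

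RAD50 went from 39.1, 32.9 and 32.9 CPM with DMSO to 6.66, 9.08 and 12.6 CPM with GSK715 (log2FC -1.89, SE 0.174, adjusted p = 1.4e-06). RAD50 shares 79.7% of its exonic bases with other genes, so its level is uncertain. MRE11 was at 3.56, 5.45 and 6.35 CPM with GSK715 (log2FC -1.12, SE 0.219, adjusted p = 8.5e-04). Both lay wholly below DMSO, and RBBP8 (log2FC -0.70) and NBN (log2FC -0.48) fell with them, while EXO1 did not pass. BRIP1, at chr17:61681266-61863521 (minus strand), went from 10.7, 11 and 10.3 CPM with DMSO to 2.67, 3.35 and 3.91 CPM (log2FC -1.69, SE 0.162, adjusted p = 1.9e-06), a 3.23-fold drop without overlap. WRN (log2FC -0.92) and BLM (log2FC -0.54) fell as well, and the call of BLM was lost without DMSO replicate 2 and with the length correction by the longest transcript.

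RAD54B was at 9.06, 11.8 and 10.1 CPM with DMSO and at 2.77, 7.07 and 5.56 CPM with GSK715 (log2FC -1.0, SE 0.282, adjusted p = 0.0102), with wide spread among the treated libraries but no overlap. Its level is uncertain, because 59.1% of its exonic bases are shared with another gene. RAD51AP1 (log2FC -0.85) and XRCC2 (log2FC -0.74) fell. RAD51C rose (log2FC 0.24), a call lost with library totals, with a length correction by the longest transcript, and without DMSO replicate 1, DMSO replicate 3, GSK715 replicate 1 or GSK715 replicate 2. CHEK1 rose (log2FC 0.33), a call lost only with library totals among the alternatives tried. The third gene that rose, FANCG of the core complex (log2FC 0.28), lost its call with library totals, with either length correction, with no count filter, and without DMSO replicate 1 or 2 or GSK715 replicate 1 or 2.

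In the Fanconi pathway, FANCM (log2FC -0.93), FANCF (log2FC -0.73), FANCE (log2FC -0.27) and FANCI (log2FC -0.50) fell with GSK715. The FANCE call was lost on leaving out DMSO replicate 1, DMSO replicate 3, GSK715 replicate 2 or GSK715 replicate 3. FANCD2 was at 15, 16.3 and 16.4 CPM with GSK715, overlapping its DMSO libraries, and did not pass (log2FC -0.13, SE 0.112, adjusted p = 0.382). NABP1 was at 17.6, 17.3 and 15.1 CPM, below every DMSO library (log2FC -0.60, SE 0.105, adjusted p = 3.7e-04), but this call was lost with the length correction (log2FC -0.22, adjusted p = 0.107).

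Set directly against GSK025 in HCT116, GSK715 left 16 of the 36 genes higher and 7 lower, and 13 did not pass. Of all genes, 44.3% passed in this contrast, 21.8% as higher and 22.5% as lower. The doses differ (5 and 10 µM), so the contrast holds for these treatments only. The largest differences were those of NABP1 (log2FC 2.18, SE 0.113, adjusted p = 1.0e-08), whose mean was 4.53-fold higher with GSK715, and of FANCL (log2FC 2.05, SE 0.196, adjusted p = 2.5e-06), 4.13-fold higher. FANCL was at 10.9, 7.42 and 10.8 CPM with GSK715, a range that overlaps that of DMSO, against 2.78 CPM at most with GSK025. MRE11 (log2FC 0.85), BRCA1 (log2FC 0.74), NBN (log2FC 0.69), WRN (log2FC 0.66), FANCD2 (log2FC 0.62) and BARD1 (log2FC 0.59) were also higher with GSK715. PALB2 (log2FC -0.79), RAD50 (log2FC -0.69), FANCE (log2FC -0.60) and FANCF (log2FC -0.59) were lower with GSK715. For BRCA2 the difference was -0.20 (95% interval -0.88 to 0.48) and for BRIP1 -0.15 (95% interval -0.50 to 0.20), and neither passed. The calls of UBE2T, FANCI, FANCB, EXO1, SLX4 and RAD51C, with adjusted p of 0.0338 to 0.047, were each lost under several of the alternatives, and that of FANCF without GSK025 replicate 1 or GSK715 replicate 1.

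With GSK715 in WiDr, 22 of the 36 genes fell, 6 rose and 8 did not pass, where 65.8% of all genes passed, 32.2% as lower and 33.6% as higher. The median log2FC of the 36 genes was -0.45, against 0.054 over all genes. The GSK715 libraries lay wholly below DMSO for 22 genes and wholly above for 6, against 34.6% and 37.5% of all genes. With library totals the split was 19 lower and 9 higher, and the median over all genes was 0.178. The genes that fell span resection, the BRCA complexes, the helicases, the clamp and both checkpoint kinases, while 4 of the 6 that rose belong to the Fanconi core.

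BRCA2 went from 39.4, 38.6 and 41.5 CPM with DMSO to 13.9, 12.2 and 11.7 CPM with GSK715 (log2FC -1.66, SE 0.0765, adjusted p = 2.9e-08). BRCA1 went from 62.0, 59.3 and 64.1 CPM to 30.1, 29 and 31.8 CPM (log2FC -1.03, SE 0.0522, adjusted p = 5.9e-08). RBBP8, at chr18:22798261-23026488 (plus strand), went from 72.8, 70.4 and 72.2 CPM to 29, 29.4 and 27.2 CPM (log2FC -1.33, SE 0.0452, adjusted p = 3.5e-09). These 3 genes of resection and the BRCA complexes dropped 3.17-fold, 2.04-fold and 2.52-fold without overlap. RAD50 (log2FC -0.91), NBN (log2FC -0.70) and EXO1 (log2FC -0.96) fell, whereas MRE11, at 44.7, 38.4 and 41.9 CPM with DMSO and 38.6, 40.1 and 41.7 CPM with GSK715, did not pass (log2FC -0.05, 95% interval -0.20 to 0.09). PALB2 did not pass either (log2FC 0.09, 95% interval -0.09 to 0.28). The level of RAD50 is uncertain here too, for its shared exonic bases.

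RAD51AP1, at chr12:4538798-4560048 (plus strand), went from 31.0, 28.5 and 29.3 CPM with DMSO to 13, 13.8 and 11.7 CPM with GSK715 (log2FC -1.21, SE 0.0782, adjusted p = 3.7e-07). RAD51C fell (log2FC -1.02), and among the others of its group XRCC2 (log2FC -0.40) and XRCC3 (log2FC -0.47) fell and RAD51D rose (log2FC 0.60). BRIP1 (log2FC -0.97), BLM (log2FC -0.61) and WRN (log2FC -0.51) fell, as did CHEK2 (log2FC -0.69), CHEK1 (log2FC -0.42) and UBE2T (log2FC -0.70). NABP1 went from 20.4, 20.3 and 21.1 CPM to 9.69, 7.4 and 8.03 CPM (log2FC -1.30, SE 0.105, adjusted p = 2.0e-06), again without overlap.

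FANCE, which links the core complex to FANCD2, lies at chr6:35452356-35467103 (plus strand) and went from 4.61, 3.63 and 3.27 CPM with DMSO to 9.71, 11.5 and 11.2 CPM with GSK715 in WiDr (log2FC 1.5, SE 0.156, adjusted p = 1.4e-05), a 2.83-fold rise without overlap. FANCF, an adaptor of the core complex whose gene has 1 exon, of whose bases 11.3% lie in exons of another gene so that its level is uncertain, rose from 22.2, 23.6 and 22.7 CPM to 40.9, 42.8 and 38.9 CPM (log2FC 0.84). FANCG (log2FC 0.49) and FANCL (log2FC 0.20) rose with them, as did RAD52 outside the pathway (log2FC 0.49). The clamp went the other way: FANCI fell (log2FC -0.66), and FANCD2, at 23.8, 19.5 and 22.6 CPM with DMSO and 17.1, 18.5 and 18 CPM with GSK715, fell by a small amount (log2FC -0.30, SE 0.0847, adjusted p = 0.011). The FANCD2 call was lost with the length correction (adjusted p = 0.131) and with library totals (0.106), as were the calls of FANCC and BARD1.

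The responses to GSK715 in the lines share no library. Of the 18 genes that fell in HCT116, 13 (72.2%) also fell in WiDr, and these are 59.1% of the 22 that fell there. Over all genes tested in both lines, 53.3% of those that fell in HCT116 also fell in WiDr, and these are 39.9% of those that fell there. The shared members are BARD1, BLM, BRCA2, BRIP1, FANCI, NABP1, NBN, RAD50, RAD51AP1, RAD54B, RBBP8, WRN and XRCC2. Of these, RAD50 and RAD54B are uncertain for their shared exonic bases. FANCG rose in both lines, 33.3% of the 3 members that rose in HCT116, against 44.4% over all genes. FANCE and FANCF fell in HCT116 and rose in WiDr, 11.1% of the 18 that fell in HCT116, against 21.2% over all genes. RAD51C and CHEK1 rose in HCT116 and fell in WiDr, 66.7% of the 3 that rose in HCT116, against 35.5% over all genes. The HCT116 calls of FANCE, RAD51C and FANCG were each lost under several alternatives. In a joint fit, the response in WiDr minus that in HCT116 passed for 18 genes, 8 with a higher and 10 with a lower value in WiDr, where 46.7% of all genes passed, 23.2% as higher and 23.5% as lower, and the median over all genes was 0.123. With library totals the split was 16 higher and 6 lower at a median over all genes of 0.467, and BRCA1, XRCC3, RBBP8 and FANCC lost their calls. FANCE (difference 1.69 on the log2 scale, SE 0.179, adjusted p = 3.8e-06) and FANCF (1.5, SE 0.154, adjusted p = 2.8e-06) differed most upward. RAD51C (-1.33, SE 0.106, adjusted p = 2.5e-07) and EXO1 (-1.19, SE 0.154, adjusted p = 2.5e-05) differed most downward. For BRCA2 the difference did not pass (0.56, 95% interval -0.14 to 1.26).

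In the ONT libraries of WiDr, 35 of the 36 genes could be tested, and 2 fell, none rose and 33 did not pass with edgeR, where 8.80% of all genes passed, 4.51% as lower and 4.29% as higher. The groups did not overlap for 12 genes below and 8 above, against 25.5% and 24.6% of all genes. At an unadjusted p under 0.05 the count was 6, for which the share of all genes was not counted, and DESeq2 called 0. The median log2FC was -0.03, against 0.003 over all genes. FANCI, at chr15:89243949-89317261 (plus strand), went from 72.0 and 61.7 CPM with DMSO to 41.1 and 42.2 CPM with GSK715 (log2FC -0.69, SE 0.17, adjusted p = 0.00556). RAD51C, at chr17:58692573-58735611 (plus strand), went from 40.6 and 48.7 CPM to 30.3 and 25.9 CPM (log2FC -0.66, SE 0.208, adjusted p = 0.0361). Both fell in WiDr short reads too, and neither passed with no count filter or without DMSO replicate 1. Without DMSO replicate 2 or either GSK715 replicate only RAD51C was lost, and RAD51C was also lost with the length correction. FANCE had the largest log2FC, 1.05, but did not pass (95% interval 0.24 to 1.87, adjusted p = 0.0972).

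BRCA1, by contrast with the short reads, was at 27.1 and 29.5 CPM with DMSO and 34.3 and 29.3 CPM with GSK715 in ONT (log2FC 0.17, SE 0.223, adjusted p = 0.728). BRCA2 was at 22.8 and 17.8 CPM with DMSO and 13.5 and 15 CPM with GSK715, lower in both treated libraries without passing (log2FC -0.52, SE 0.295, adjusted p = 0.32). NABP1 was at 24.6 and 24.7 CPM with DMSO and 22.9 and 25.9 CPM with GSK715 (log2FC -0.02, SE 0.244, adjusted p = 0.984). FANCD2 was at 14.2 and 21.3 CPM and at 18.2 and 13.6 CPM in the same order (log2FC -0.14, SE 0.305, adjusted p = 0.851). Only BRCA2 of these 4 had groups that did not overlap. The counts behind these values were low: 43 to 51 estimated counts per library for BRCA1, 20 to 37 for BRCA2, 34 to 40 for NABP1 and 20 to 31 for FANCD2.

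The read types were then compared within WiDr in a joint fit. The response in ONT minus that in short reads passed for 11 of 36 genes, 10 of them higher in ONT, where 19.9% of all genes passed, 11.2% as higher and 8.69% as lower. With library totals 8 were higher and 2 lower, and the median over all genes moved from -0.042 to -0.240. RBBP8 differed most (1.73, SE 0.196, adjusted p = 4.8e-05), from 24.0 and 16.5 CPM with DMSO to 26.9 and 25.2 CPM with GSK715 in ONT while its short-read level fell 2.52-fold. RAD51AP1 (1.47), NBN (1.34), NABP1 (1.33), BRCA1 (1.25), BRCA2 (1.19), BRIP1 (1.15), RAD50 (0.76, uncertain for its shared exonic bases), CHEK1 (0.71) and CHEK2 (0.49) were also higher in ONT. FANCF was the gene with a lower response in ONT (-0.55), a call lost without ONT DMSO replicate 1, as were those of NBN, CHEK1 and CHEK2. CHEK1 and CHEK2 were also lost with library totals and without ONT GSK715 replicate 1, and CHEK2 with the length correction, with no count filter, and without ONT DMSO replicate 2, ONT GSK715 replicate 2 or short-read DMSO replicate 2. FANCI (0.03, 95% interval -0.27 to 0.32) and FANCL (0.01, 95% interval -0.23 to 0.25) differed little between the read types. Levels also differ between the methods, in tables that were normalized separately: with DMSO, BRIP1 was at 9.13 to 9.98 CPM in short reads and at 66.4 and 67.2 CPM in ONT, and NBN at 81.1 to 86.0 CPM and at 7.38 and 13.7 CPM. The median ONT read was 815 and 844 bases long with DMSO and 765 and 811 bases with GSK715. The part of read length, depth or counting method in these differences was not tested.

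**Figure D3:**
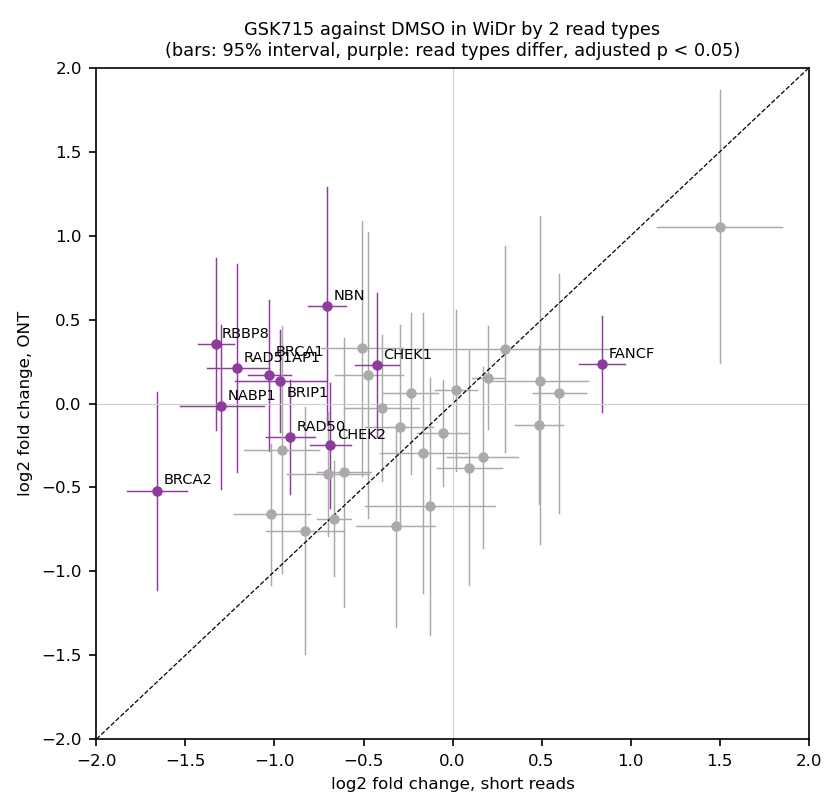
Log2 fold change with GSK715 in WiDr by short reads (x axis) and by ONT (y axis) for the 35 genes tested in both, with 95% intervals; purple genes differ between the read types and the dashed line marks equal responses. RBBP8, RAD51AP1, BRCA1 and NABP1 lie at -1.03 or below on the x axis and near or above 0 on the y axis.

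Exonic length, the union of a gene's exons in GENCODE 29, runs from 1.65 kb for UBE2T to 13.81 kb for NABP1 among the 36 genes. Over all genes of at least 5 CPM, log2FC fell with length in HCT116, with Spearman's rho of -0.301 for GSK025 and -0.293 for GSK715 (11184 genes), and hardly so in WiDr short reads (-0.0635, 11025 genes) and ONT (-0.00911, 11798 genes). Over the 36 genes rho was -0.264, -0.199 and -0.216 in the short-read comparisons and -0.124 over the 35 genes in ONT. By the length of the longest transcript, rho over the members was -0.432, -0.461, -0.214 and -0.202 in the same order. Over all genes of at least 5 CPM it was then -0.345, -0.341, -0.0927 and -0.0165. These correlations run across genes that share libraries and are descriptions only. With GSK025, among genes of 4 to 6 kb, 29.8% of all genes and 5 of 8 members fell. At 6 to 8 kb the counts were 37.8% and 6 of 10, and from 8 kb up 49.1% and 7 of 10. With GSK715 in HCT116 the same classes gave 30.4% and 5 of 8, 37.5% and 6 of 10, and from 8 kb up 50.3% of all genes but 4 of 10 members. In WiDr with GSK715 they gave 46.6% and 6 of 8, 50.4% and 8 of 10, and 51% and 6 of 10. At 2 to 4 kb, 3 of 7 members fell and 2 rose with GSK025 (17.7% and 45% of all genes). With GSK715 in HCT116, 3 fell and 1 rose there (21% and 43%). In WiDr 1 fell and 4 rose (43.3% and 37.5%). Under 2 kb the only member was UBE2T. The shares of all genes in these classes cover genes of at least 5 CPM, a filter that was not applied to the members.

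After a per-library correction for the trend of counts with length, 20 genes fell and 3 rose with GSK025 (median log2FC -0.52), against 20.9% and 23.2% of all genes (median -0.029). With GSK715 in HCT116, 17 fell and 4 rose (median -0.26), against 23.0% and 23.8% of all genes (median -0.052). In WiDr, 19 fell and 7 rose (median -0.34), against 29.7% and 36.2% of all genes (median 0.108). BRCA2 kept a log2FC of -1.76 with GSK025, -1.95 with GSK715 in HCT116 and -1.50 in WiDr, and NABP1 kept -2.41 with GSK025. FANCC, with 12.81 kb, passed as higher after the correction in both HCT116 comparisons (log2FC 0.46 and 0.56). The part of RNA quality in the length trend was not tested.

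**Figure D4:**
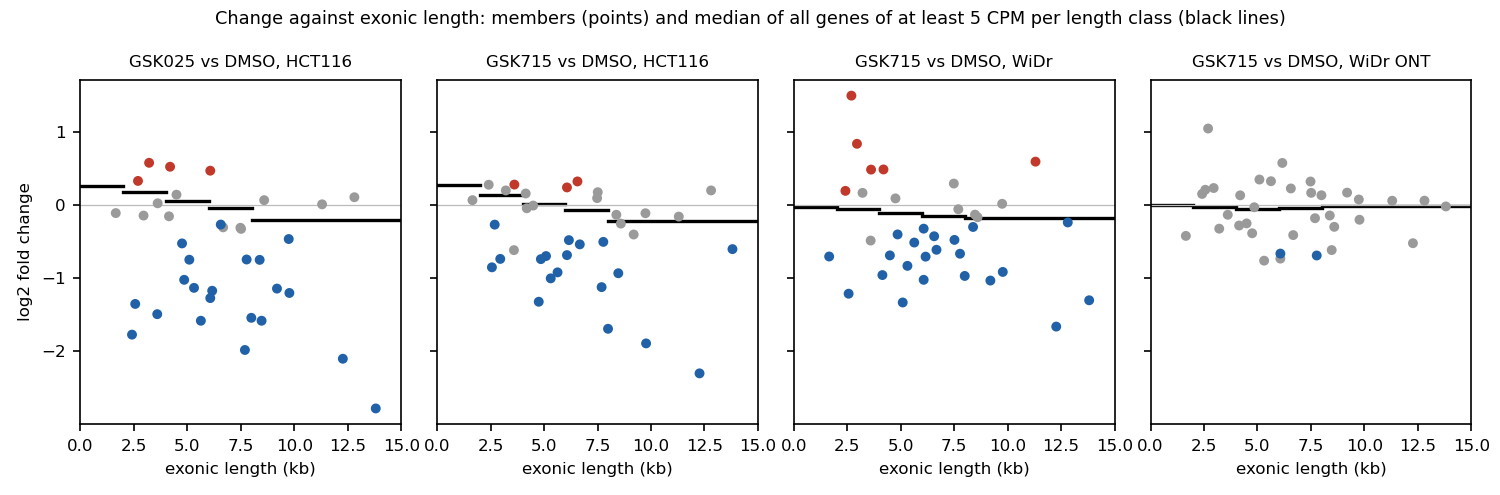
Log2 fold change (y axis) of the members (points, blue fell, red rose, grey did not pass) against exonic length in kb (x axis), with the median of all genes of at least 5 CPM in each length class as black lines, per comparison. In HCT116 with GSK025 the black lines descend from 0.27 to -0.20, and 21 members are blue.

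Other genes of the same pathways were read from a list of 60 further factors, of which 59 could be tested in short reads and 53 in ONT. With GSK025, 26 fell and 17 rose (median log2FC -0.16), against 22.1% and 22.0% of all genes (median -0.018). With GSK715 in HCT116, 30 fell and 14 rose (median -0.12), against 24.2% and 22.1% of all genes (median -0.052). In WiDr, 30 fell and 12 rose (median -0.32), against 32.2% and 33.6% (median 0.054), and in ONT 3 fell and none rose (median -0.07), against 4.51% and 4.29% (median 0.003). RIF1, which opposes resection, fell with GSK025 (log2FC -1.87) and with GSK715 in HCT116 (log2FC -1.27). POLQ, the polymerase of an alternative end-joining route (log2FC -1.80), and the checkpoint activator TOPBP1 (log2FC -1.36) fell with GSK025, while TONSL (log2FC 1.10), the shieldin subunit SHLD1 (log2FC 0.96) and NABP2, the paralog of NABP1 (log2FC 0.84), rose. NABP2 (log2FC 0.65), RMI2 of the BLM complex (log2FC 0.58) and WDR48, the partner of the deubiquitinase USP1 (log2FC 0.57), rose with GSK715 in HCT116, and the resolvase GEN1 (log2FC -1.47) and FAAP24 (log2FC -1.38) fell. So NABP1 and NABP2 moved in opposite directions in HCT116: NABP2 went from 24.1, 24.1 and 24.6 CPM with DMSO to 41.2, 43.7 and 45.2 CPM with GSK025 and 38.2, 38.5 and 37.7 CPM with GSK715. NABP1 has 13.81 kb of exons and NABP2 2.22 kb, and log2FC fell with length over all genes of at least 5 CPM in HCT116. The part of length in the opposite moves of NABP1 and NABP2 was not tested. With the length correction the fall of NABP1 passed with GSK025 (log2FC -2.41) but not with GSK715 (log2FC -0.22).

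In WiDr with GSK715, SPIDR, a scaffold of recombination (log2FC -1.54), USP1, which removes ubiquitin from FANCD2 (log2FC -1.43), and the nuclease subunit MUS81 (log2FC -1.20) fell, and ATRIP (log2FC 1.10), RMI2 (log2FC 0.87) and CENPX (log2FC 0.86) rose. In ONT, SPIDR (log2FC -1.09), FAAP20 (log2FC -0.74) and CENPS (log2FC -0.54) fell. SPIDR was at 39.4, 41.0 and 43.2 CPM with DMSO and 14.5, 15.2 and 13 CPM with GSK715 in short reads, and at 46.8 and 42.5 CPM and 23.6 and 18.4 CPM in ONT, so its groups were apart by both read types. FAAP20 rose in short reads (log2FC 0.33) and fell in ONT, and the responses differed by -1.02 on the log2 scale (SE 0.21, adjusted p = 0.00379). CENPS (64.7%), ATRIP (27.9%) and MUS81 (14.1%) share exonic bases with other genes and are uncertain.

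Many of the 36 genes are expressed in dividing cells, so 20 proliferation genes were read beside them. With GSK025, 9 of the 20 rose and 7 fell (median log2FC 0.09), where 44.1% of all genes passed, and their summed level was 1604.1 to 1652.0 CPM with DMSO and 1666.7 to 1694.9 CPM with GSK025. With GSK715 in HCT116, 7 rose and 11 fell (median -0.18), where 46.4% of all genes passed, and the sum was 1426.1 to 1470.2 CPM. In WiDr, 8 rose and 9 fell (median -0.05), where 65.8% of all genes passed, and the sum went from 2409.8 to 2466.2 CPM with DMSO to 1662.2 to 1679.2 CPM with GSK715. The order with GSK025 depends on the scaling: on the unscaled library totals the proliferation sum was 1695.3 to 1734.4 CPM with DMSO and 1670.7 to 1717.0 CPM with GSK025, so the groups overlapped. On the same totals it was 1353.7 to 1365.2 CPM with GSK715 in HCT116, and in WiDr 2300.4 to 2354.6 CPM with DMSO and 1731.1 to 1752.8 CPM with GSK715. The part of proliferation in the members' change was not tested.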

How the data were processed

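The 36 genes, the list of 60 further pathway genes, the proliferation list and the comparisons were chosen with earlier results of these data known. Per the labels, poly(A) RNA was enriched for the short-read libraries, while ONT read full-length cDNA. The authors deposited whole-number gene counts for the short reads. For ONT the authors deposited estimated counts, 15.1% of them not whole, which were rounded here. Per the submitters' processing notes, cutadapt, HISAT2, StringTie, Salmon, minimap2 and DESeq2 were used on the build GRCh38, and the annotation release and the counting strand are not given in the sources used here. A deposited table of ONT read statistics gave read lengths in bases. WiDr columns named NC were taken as DMSO, the only control the labels give.

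Each table was fitted whole with edgeR 4.0.16 in R 4.3.3: filterByExpr (minimum count 10, minimum total 15), TMM scaling, the quasi-likelihood F-test and Benjamini-Hochberg adjustment over all genes tested, with a threshold of 0.05. Differences between lines and between read types were interaction terms of joint fits over the gene IDs that the tables share, with their own dispersions, so their SE can be below that of 1 table. SE is the log2 fold change divided by the root of F. Gene models came from GENCODE 29 and promoters from RefSeq. For the length correction, each library's log CPM was taken as its deviation from the gene's mean over libraries. The smooth trend of this deviation on log exonic length (natural spline, 5 coefficients with the intercept) entered the fit as an offset. A member is called uncertain where 10% or more of its exonic bases lie in another gene's exons.

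Values in every library are given for the 6 called members with the largest log2 fold change in each comparison of an inhibitor with DMSO (at least 1 CPM), and for BRCA1, BRCA2, FANCD2 and NABP1 in every table, and some further members were added after their values were seen. The 3 further pathway genes with the largest change in each direction were named, and NABP2, SPIDR and FAAP20 were described further after their values were seen. The fits were tested on simulated data. There, 53.1% of the genes changed 2-fold were called in ONT and 21.4% in ONT minus short reads. In the other comparisons 54.2% to 70.8% were called. Of the genes called, 1.49% to 8.28% were false, the most in GSK715 against GSK025. Alternatives were RLE size factors, library totals, no count filter, DESeq2 1.42.0, a block for the replicate number, leaving out each replicate, no mitochondrially encoded genes, only the compared groups in the fit and the length correction. A length correction by the longest transcript and the count without overlapping genes were added after seeing the data.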

Additional observations from a re-analysis of the deposited data

Results flagged for a closer look

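The response to GSK715 differed between WiDr and HCT116, by the interaction test of edgeR at an adjusted p under 0.05, for 18 of the 36 genes. Of all genes, 46.7% passed this test, 23.2% as higher and 23.5% as lower. As WiDr minus HCT116 on the log2 scale, the difference was higher for FANCE (1.69), FANCF (1.5), PALB2 (1.34), MRE11 (1.00), RAD50 (0.91), FANCM (0.73), RAD51D (0.68) and BRIP1 (0.66). It was lower for RAD51C (-1.33), EXO1 (-1.19), UBE2T (-0.84), CHEK1 (-0.82), NABP1 (-0.77), CHEK2 (-0.75), XRCC3 (-0.72), RBBP8 (-0.71), BRCA1 (-0.70) and FANCC (-0.51). With library totals, BRCA1, XRCC3, RBBP8 and FANCC lost their calls. The lines were run as separate tables, so line and table cannot be told apart, in the baseline levels or in these response differences.

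The response to GSK715 in WiDr differed between ONT and short reads, by the same kind of test, for 11 of the 36 genes. Of all genes, 19.9% passed, 11.2% as higher and 8.69% as lower. As ONT minus short reads the response was higher for RBBP8 (1.73), RAD51AP1 (1.47), NBN (1.34), NABP1 (1.33), BRCA1 (1.25), BRCA2 (1.19), BRIP1 (1.15), RAD50 (0.76), CHEK1 (0.71) and CHEK2 (0.49), and lower for FANCF (-0.55). CHEK1 and CHEK2 lost their calls with library totals. Without ONT DMSO replicate 1 the calls of FANCF, NBN, CHEK1 and CHEK2 were lost.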

How the results depend on the processing

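For the members named by rule, no called value changed sign under an alternative, and 6 refits of values that were not called did, all of FANCD2 or NABP1. The median of the members in ONT moved from -0.03 to 0.06 without ONT DMSO replicate 2. Among the counts of members called higher or lower, 215 values under an alternative stayed within 1.5 times the reported count and 19 did not. Except for the length correction in short reads, no share of all genes is set beside the counts under the alternatives. The 24 called values of the members named by rule had 371 refits under the alternatives that apply to them, of which 354 kept the call and 17 lost it. This does not cover the other members, some of which also lost calls. Of the 84 refits of the 6 values that were not called, 4 passed, all of BRCA1 with GSK715 in HCT116. With GSK025 in HCT116, 7 genes rose with a length correction by the longest transcript, against 4. With GSK715 in HCT116, 0 rose with library totals, against 3, and 1 to 3 rose when a replicate was left out (1 without DMSO replicate 1, GSK715 replicate 1 or GSK715 replicate 2). In ONT, 2 genes fell as reported, 1 with the length correction, 0 with DESeq2, 0 with no count filter and 0 to 1 when a replicate was left out (0 without DMSO replicate 1, 1 without any other). Between lines, library totals gave 16 higher and 6 lower. Between read types, 2 genes were lower with library totals and 2 without mitochondrially encoded genes, against 1, and 0 to 2 when a replicate was left out (0 without ONT DMSO replicate 1, 2 without short-read DMSO replicate 1 or 2). Leaving out the 7 genes with shared exons left 17 lower and 3 higher with GSK025, 15 and 3 with GSK715 in HCT116, and 19 and 4 in WiDr.

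Samples with the same replicate number did not deviate together in every pair (correlations of -0.158 to 0.0228 in HCT116, -0.0569 to 0.181 in WiDr and 0.00134 in ONT), so the numbers were not taken to pair them. With the replicate number as a block, 21 genes fell and 4 rose with GSK025, 19 fell and 3 rose with GSK715 in HCT116, and 22 fell and 6 rose in WiDr. Between lines, 9 were higher and 10 lower with the block. BRCA1 passed with the block in HCT116 with GSK715 (log2FC -0.39, adjusted p = 0.0437). Libraries of a group varied 9.9 to 25 times more than counting noise in short reads and 1.43 to 1.63 times in ONT, so no libraries agreed within sampling noise. The ONT libraries hold 1.45 to 1.67 M counts each and number 2 a group, which limits the precision of their values.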
